A study of Mus musculus with 1307 samples.

Results

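The genes described here encode the classical guidance cues and their receptors: semaphorins and plexins, ephrins and Eph receptors, Slits and Robos, and netrins and Unc5 receptors. They were chosen by symbol, with earlier results of these data known. Of the 46517 genes in the count table, 65 had a symbol of these families and 57 had counts in at least 10 of the 1307 cells. These 57 comprised 19 of 20 semaphorins, all 9 plexins, 12 of 14 Eph receptors, 7 of 8 ephrins, 2 of 3 Slits, 3 of 4 Robos, 2 of 3 netrins and 3 of 4 Unc5 receptors. Over the whole table, 21036 genes had counts in at least 10 cells.

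Guidance cues were first known for steering growing axons, and the same families act on blood vessels, the heart and peripheral nerve. Secreted class 3 semaphorins signal through neuropilins with plexins, whereas membrane-bound semaphorins bind plexins directly. Ephrins are tethered to the cell surface and signal into the Eph-bearing cell and back into their own. Slits bind Robos, and netrins bind Unc5 and Dcc-type receptors.

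Single cells from dissociated adult mouse hearts were sorted into plates and sequenced by Smart-Seq2, which reads whole transcripts and carries no molecular barcodes, in a series that inventories smooth muscle cells. Most cells came from 3 mice of the genotype ACTA2GFP:CSPG4dsRED, which carry a green reporter named for the smooth muscle actin gene and a red reporter named for Cspg4, the NG2 proteoglycan gene of mural cells (368, 245 and 336 cells). A C57BL/6 mouse without a reporter in its label gave 347 cells, and 11 further cells came from 2 other C57BL/6 mice, 1 CSPG4dsRED mouse and the genotype ACTA2GFP. The 3 ACTA2GFP cells carried both sex labels under 1 replicate number, so their number of mice is uncertain. All animals were labelled as 8 to 30 weeks old, no label names a treatment or the sorting gate, and each of the 4 main mice filled its own plate, so mouse and plate cannot be told apart. Double-reporter mouse 3 was labelled female, the other 3 main mice male, while the design text speaks of males only.

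Cells held between 50476 and 811982 counts each (median 274702). They were clustered without the guidance genes, their partners and the marker genes, and a cluster was named from fixed markers only, so the levels below were not used to draw the classes. The double-reporter mice gave smooth muscle-like cells (125, 77 and 22), pericyte-like cells (47, 13 and 9), fibroblast-like cells (73, 97 and 165) and Schwann-like cells (34, 12 and 18). Mouse 3 also gave 30 macrophage-like cells. The C57BL/6 mouse gave 241 endothelial-like, 65 endocardial-like, 13 Schwann-like and 11 lymphatic endothelial-like cells. Counts were summed per mouse and class, sums of at least 10 cells were used, and levels are in CPM, counts scaled to 1000000 counts of the sum. Values "per mouse" are in the order of double-reporter mice 1, 2 and 3. The summed smooth muscle markers reached 20030 to 26300 CPM in smooth muscle-like sums, the pericyte markers 14600 and 16690 CPM in pericyte-like sums, and the Schwann markers 9713 to 12470 CPM in the double-reporter Schwann-like sums.

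Some sums held markers of another class. The endothelial markers stood at 578 and 1232 CPM in the 2 pericyte-like sums, against 116 to 190 CPM in smooth muscle-like sums, and fibroblast markers stood at 6433 to 9580 CPM in the double-reporter Schwann-like sums, against 20000 to 31020 CPM in fibroblast-like sums. The C57BL/6 Schwann-like sum held 5356 CPM of endothelial markers, against 5.37 to 32.0 CPM in the double-reporter Schwann-like sums, and is therefore given apart. The fibroblast-like class also differed in make-up between mice. Its cells were mostly valve-like in mouse 1, with 69 of 73, and in mouse 2, with 62 of 97, whereas 130 of 165 were interstitial in mouse 3. In sums of cells, fewer expressing cells and less RNA per cell cannot be told apart.

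The promoters of Plxnb3, Sema4f and Sema3e are shown because these 3 genes had the largest rises among the 6 genes called higher in Schwann-like against fibroblast-like sums, described below. Each run is the 250 bases before the RefSeq transcript start (GRCm38.p6), 5′ to 3′ on the gene's strand. Capitals mark matches to ACAAAG or AACAAT, hexamers of the kind that SOX-family factors bind, read on both strands (CTTTGT and ATTGTT on the other strand). Plxnb3 lies at chrX:73756853-73757102 on the plus strand, Sema4f at chr6:82939770-82940019 on the minus strand and Sema3e at chr5:14025026-14025275 on the plus strand.
Plxnb3: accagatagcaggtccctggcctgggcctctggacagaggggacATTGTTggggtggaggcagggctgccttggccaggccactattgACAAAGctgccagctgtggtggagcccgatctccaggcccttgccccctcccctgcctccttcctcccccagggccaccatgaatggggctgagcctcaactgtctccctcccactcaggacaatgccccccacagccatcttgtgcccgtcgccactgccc
Sema4f: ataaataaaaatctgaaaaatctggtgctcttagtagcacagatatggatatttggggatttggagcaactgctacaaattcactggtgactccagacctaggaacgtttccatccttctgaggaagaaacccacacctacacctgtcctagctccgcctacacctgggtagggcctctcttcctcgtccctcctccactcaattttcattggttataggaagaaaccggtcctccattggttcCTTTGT
Sema3e: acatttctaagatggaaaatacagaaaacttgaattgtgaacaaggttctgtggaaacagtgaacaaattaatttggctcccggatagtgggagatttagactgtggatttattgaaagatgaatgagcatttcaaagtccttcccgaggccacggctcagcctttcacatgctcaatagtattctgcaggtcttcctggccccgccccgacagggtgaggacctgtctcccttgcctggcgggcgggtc
Plxnb3 held 1 match to each hexamer, Sema4f 1 match to ACAAAG at 6 bases before the start, and Sema3e none. Of the 6 genes called higher in Schwann-like sums, 5 had a promoter in the table, and 2 of these 5 held ACAAAG, against 0 of the 5 called lower and 4447 of 27025 genes in the table (16.5%). Among the 51 guidance genes in the table, 6 (11.8%) held ACAAAG and 3 (5.9%) AACAAT, against 9.6% of all genes for AACAAT. A match describes letters only.

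Across the 8 named classes, the genes divided among cell types rather than gathering in 1. By mean CPM, 13 of the 57 were highest in Schwann-like sums, 11 in endothelial-like, 8 in lymphatic endothelial-like, 7 in pericyte-like, 6 in smooth muscle-like, 5 each in endocardial-like and fibroblast-like, and 2 in macrophage-like sums. Semaphorins led in the Schwann-like class with 6 genes, and 4 of the 7 ephrins were highest in endothelial-like cells. These are ranks of means, many of them low, and several classes rest on 1 mouse. The share of all genes that is highest in each class is not given, so these counts do not set guidance genes apart from other genes.

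**Figure D1:**
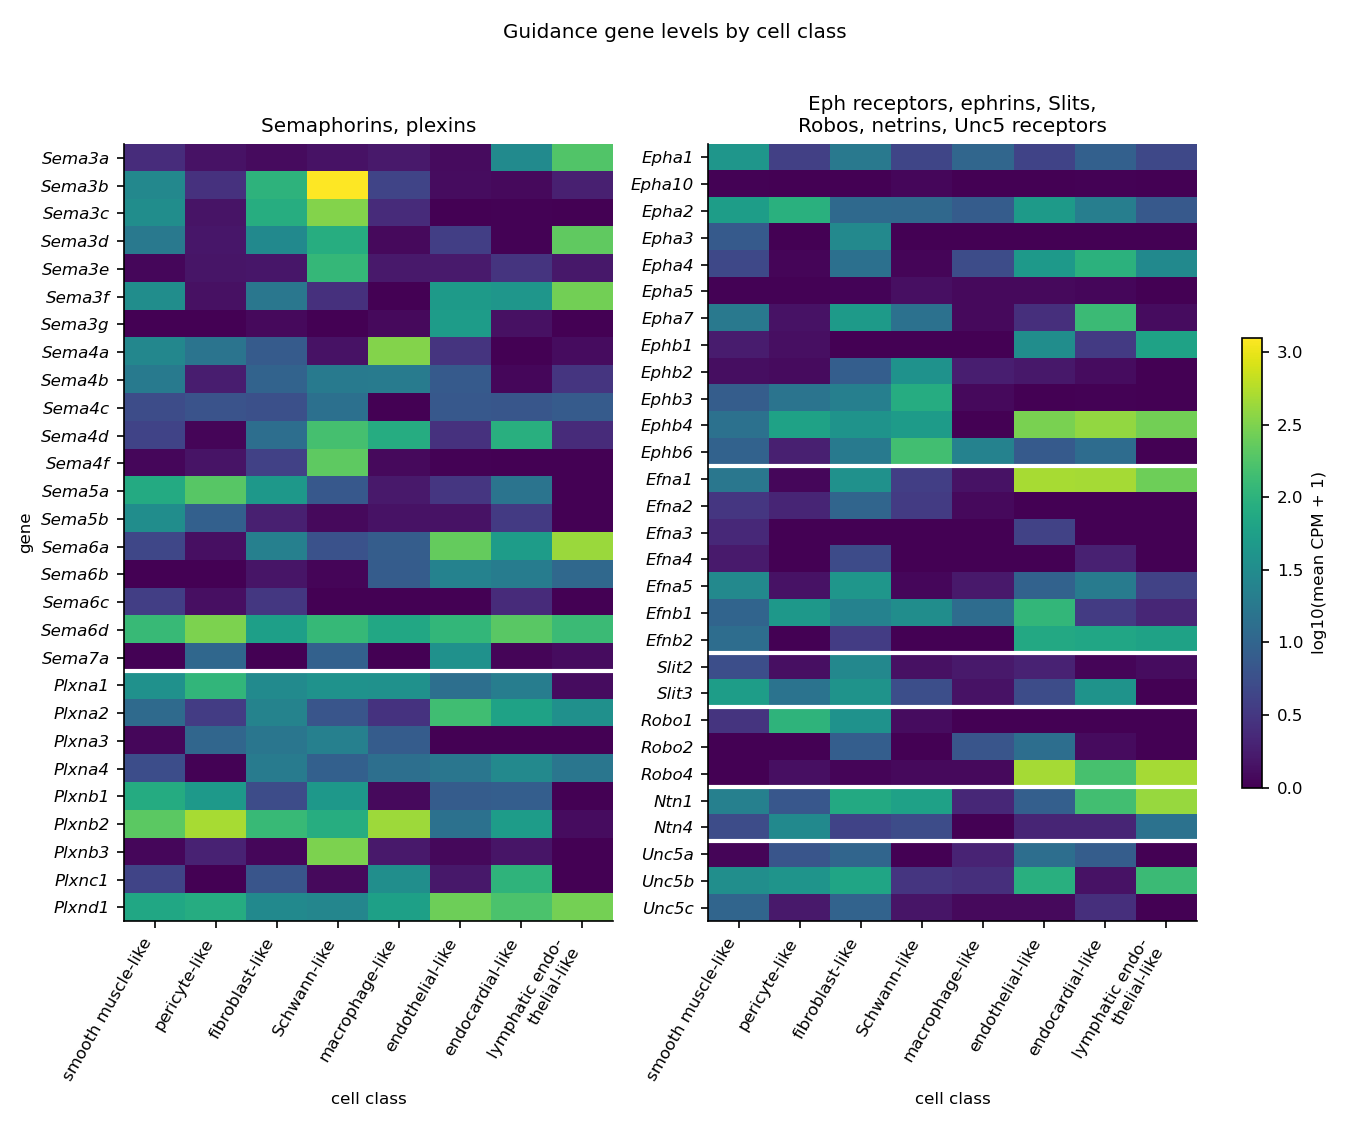
Level of each of the 57 guidance genes (rows) in 8 cell classes (columns), as log10 of the mean CPM plus 1, where the mean is over double-reporter mice with at least 10 cells of the class, or the single C57BL/6 mouse for the 3 classes named endothelial or endocardial. Sema3b in Schwann-like cells (1256 CPM) is the brightest cell, and Efna1, Ephb4 and Robo4 are bright across the endothelial classes.

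Per kilobase of exon, which allows genes to be compared, the highest level among the semaphorins was Sema3b in Schwann-like cells at 263 ± 42.9 CPM per kb (SD, n = 3 mice), and the next semaphorin was Sema4a in macrophage-like cells at 61.8 CPM per kb (1 mouse). Among the plexins it was Plxnb2 in pericyte-like cells at 63.0 CPM per kb, followed by Plxnb3 in Schwann-like cells at 47.0. Efna1 led the ephrins at 271 CPM per kb and Robo4 the Robos at 91.4, in endothelial-like cells. Ephb4 led the Eph receptors at 83.9 CPM per kb in endocardial-like cells, and Ntn1 the netrins at 65.9 in lymphatic endothelial-like cells. Slits were low on this scale, with Slit3 at 16.7 CPM per kb in interstitial fibroblast-like cells and Slit2 never above 1.80 in any class or cluster with 2 mice.

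Schwann-like cells are the glia of peripheral nerve, and by edgeR their comparison held 11 of the guidance genes' calls. Against fibroblast-like sums of the same 3 mice, 11 of the 50 tested guidance genes passed an adjusted p of 0.05 (edgeR quasi-likelihood test with mouse as block, Benjamini-Hochberg over 17240 genes), 6 higher and 5 lower. This is 22% of the tested members, against 5.84% of all genes tested (1.54% higher and 4.3% lower). DESeq2 called 21 of the 50, against 17.1% of all genes. The higher genes were 4 secreted or membrane semaphorins (Sema3b, Sema3c, Sema3e and Sema4f) and 2 class B plexins (Plxnb1 and Plxnb3). The lower ones were Epha3, Efna5, Slit2, Robo1 and Unc5b. The median log2 change was -1.97 over the 50 members and -0.55 over all genes.

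Plxnb3, a plexin that binds the class 5 semaphorin Sema5a, is on the X chromosome at chrX:73757090-73772514. It stood at 347, 244 and 325 CPM per mouse in Schwann-like sums and at 0.237, 0.0383 and 0.122 CPM in fibroblast-like sums. The groups were far apart, with 6316 counts against 13 (log2 change 11.28, SE 0.88, edgeR adjusted p = 0.00022). Counts of Plxnb3 were present in 79.4%, 41.7% and 61.1% of Schwann-like cells (70.6%, 41.7% and 61.1% after thinning every cell to 50000 counts), but in 9.59% of fibroblast-like cells or fewer. In mouse 2, with 12 Schwann-like cells, 1 cell held 59.6% of the counts. In the C57BL/6 Schwann-like sum Plxnb3 reached 54.9 CPM. It was the only guidance gene that kept its call in all 15 alternative analyses of this comparison.

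Sema3b (chr9:107597674-107609229), a secreted semaphorin that signals through neuropilins and plexins, was the most abundant guidance transcript of the class. It stood at 1398, 1349 and 1021 CPM per mouse, against 149, 90.1 and 61.5 CPM in fibroblast-like sums, with no overlap (log2 change 3.77, SE 0.67, edgeR adjusted p = 0.0127). All 34 Schwann-like cells of mouse 1 had counts of it. Without mouse 2 its adjusted p was 0.0692. The C57BL/6 Schwann-like sum stood at 428 CPM.

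Sema3c (chr5:17574281-17730268), known for its part in outflow tract formation, stood at 221, 358 and 421 CPM in Schwann-like sums and at 42.0, 88.9 and 122 CPM in fibroblast-like sums (log2 change 2.02, SE 0.39, edgeR adjusted p = 0.0175). Every Schwann-like sum was above every fibroblast-like sum, and each mouse moved the same way. Sema4f, a membrane semaphorin, stood at 333, 137 and 167 CPM against 8.75, 0.0383 and 0.0978 CPM (log2 change 8.30, SE 1.69, edgeR adjusted p = 0.0233). Of the fibroblast-like counts of Sema4f in mouse 1, 98.5% came from 1 cell. Sema3e, the secreted ligand of Plxnd1, stood at 80.1, 136 and 129 CPM against 1.22, 0.0766 and 0.342 CPM (log2 change 7.69, SE 1.53, edgeR adjusted p = 0.021). Plxnb1, the receptor of Sema4d, stood at 71.2, 10.3 and 52.0 CPM against 6.08, 1.76 and 4.84 CPM (log2 change 3.30, SE 0.78, edgeR adjusted p = 0.0398). Single cells carried much of these sums. In mouse 2, 1 of the 12 Schwann-like cells held 73.6% of the Sema3e counts, 67.6% of the Sema4f counts and 93.8% of the Plxnb1 counts. In mouse 3, 1 cell held 96.5% of the Plxnb1 counts.

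The genes that were lower in Schwann-like sums were close to absent there. Robo1, a Slit receptor, had 7 counts in all Schwann-like cells of the 3 mice and stood at 22.97, 54.5 and 32.4 CPM in fibroblast-like sums (log2 change -6.70, SE 1.18, edgeR adjusted p = 0.0116). Its ligand Slit2 had 12 counts, against 25.9, 23.7 and 30.8 CPM in fibroblast-like sums (edgeR adjusted p = 0.046). The receptor tyrosine kinase Epha3 had 1 count in Schwann-like cells and the GPI-anchored ligand Efna5 had 2. Their fibroblast-like to Schwann-like ratios were 472 (95% counting interval 84.7 to 18670) and 387 (107 to 3197), with edgeR adjusted p-values of 0.0321 and 0.0375. These intervals treat reads as independent. In fibroblast-like sums Epha3 stood at 39.0, 39.8 and 5.60 CPM per mouse and Efna5 at 32.5, 47.3 and 43.4 CPM. Of the fibroblast-like Epha3 counts, 1 cell held 15.5%, 23.2% and 44.1% per mouse. Unc5b, a netrin receptor, stood at 4.96, 0 and 1.09 CPM, against 94.8, 69.2 and 29.6 CPM in fibroblast-like sums (edgeR adjusted p = 0.043). In the C57BL/6 Schwann-like sum Efna5 stood at 22.97 CPM and Unc5b at 38.6 CPM, beside its endothelial markers, and the part of those cells in these values was not tested.

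These calls rested on few animals. Leaving out mouse 1, 2 or 3 left 3, 1 and 4 calls. Sema3b, Sema4f and Plxnb3 were called without mouse 1 and Plxnb3 alone without mouse 2. Of the 4 calls without mouse 3, 3 were among the 11 (Sema3b, Plxnb3 and Efna5). The direction of all 11 was kept in the 15 alternatives. Among the members not called, Ephb6, an Eph receptor without kinase activity, stood at 84.1, 240 and 108 CPM in Schwann-like sums and at 20.4, 13.9 and 18.3 CPM in fibroblast-like sums, with an edgeR adjusted p of 0.227.

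**Figure D2:**
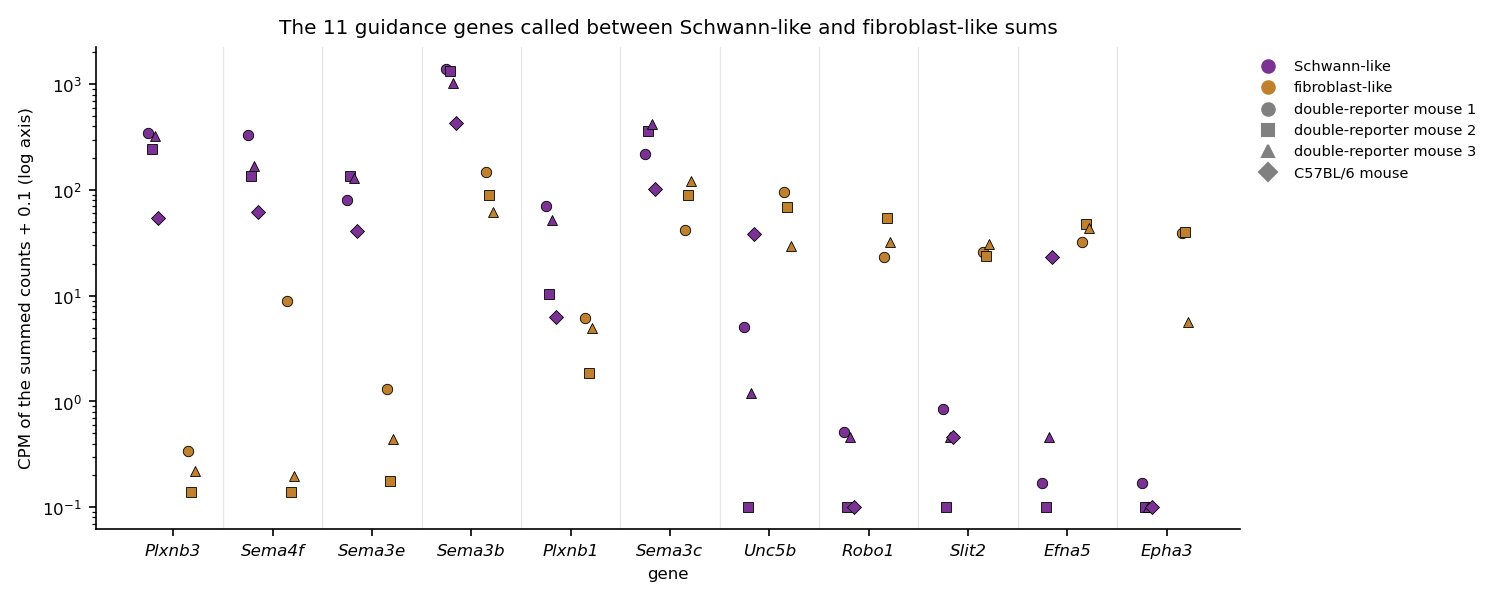
CPM plus 0.1 (log axis) of the 11 called guidance genes in each Schwann-like and fibroblast-like sum, with 1 point per mouse and class and a diamond for the C57BL/6 Schwann-like sum, which did not enter the test. Sema3b, Sema3c, Sema3e, Sema4f, Plxnb1 and Plxnb3 are higher in all 3 double-reporter Schwann-like sums, and the other 5 genes stand near 0 there, with Unc5b reaching 4.96 CPM in mouse 1.

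Among 59 listed partner genes of the guidance pathways, 54 were tested in this comparison, and 5 were higher and 9 lower. Of all genes tested, 1.54% were higher and 4.3% lower. The list was drawn up with earlier results of these data known, so these counts are descriptions. The higher ones were Arhgef16, Dag1, Flrt3, Ntng1 and Ptk2. Dag1, the dystroglycan that binds Slits, stood at 1404, 1039 and 1251 CPM in Schwann-like sums against 275, 336 and 379 CPM (log2 change 1.92, edgeR adjusted p = 0.00449). Flrt3, a membrane protein that binds Unc5 and Robo receptors, stood at 404, 376 and 451 CPM against 8.71, 3.90 and 3.69 CPM (log2 change 6.37, edgeR adjusted p = 0.00841). Its relative Flrt2 went the other way, with 3 counts in Schwann-like cells against 138, 92.9 and 75.1 CPM in fibroblast-like sums (edgeR adjusted p = 0.00461). Mical2, of a family of plexin effectors, and the netrin receptor family member Neo1 were also lower, with 13 and 7 counts in Schwann-like cells.

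Smooth muscle-like and pericyte-like cells, the contractile and capillary mural cells of the vessel wall, differed in 2 guidance genes. Of 50 tested, 1 was higher and 1 lower in smooth muscle-like sums, which is 4.0% of members against 1.35% of all genes tested (0.934% higher and 0.412% lower). DESeq2 called 16, against 12.2% of all genes. Sema3c stood at 26.2, 38.5 and 31.8 CPM per mouse in smooth muscle-like sums and at 0.280 and 0.647 CPM in the pericyte-like sums of mice 1 and 2 (log2 change 6.18, SE 0.62, edgeR adjusted p = 0.00465). Robo1 (chr16:72308306-73046095) went the other way, at 1.31, 3.56 and 0.830 CPM in smooth muscle-like sums and 115 and 89.9 CPM in pericyte-like sums (log2 change -5.68, SE 1.12, edgeR adjusted p = 0.0465). Neither gene's groups overlapped. Few pericyte-like cells carried the Robo1 level, with counts in 12 of 47 cells of mouse 1 and 2 of 13 cells of mouse 2. In each mouse 1 cell held 32.3% and 55.4% of these counts, in that order. Leaving out mouse 1 or 2 left 1 pericyte-like sum, assumed to vary like the other classes. The log2 change of Sema3c was then 5.73 and 6.29 (edgeR adjusted p = 0.132 and 0.26) and that of Robo1 -5.05 and -6.63 (adjusted p = 0.29 and 0.322). Without mouse 3 the Robo1 change was -5.46 (adjusted p = 0.144). With only the 2 classes in the fit both calls were lost, at 6.27 for Sema3c (adjusted p = 0.221) and -5.51 for Robo1 (adjusted p = 0.0734). Sums of at least 4 cells added the 9 pericyte-like cells of mouse 3. Then 4 guidance genes were called higher and 0 lower, so the Robo1 call was lost there too. Robo1 kept its call in 7 of 15 alternatives. Without the cells over 500 CPM of endothelial markers, which left 1 pericyte-like sum of 28 cells, its log2 change was -6.97 (edgeR adjusted p = 0.0842). In the 241 endothelial-like cells, which came from the C57BL/6 mouse and its own plate, Robo1 had no count. The part of endothelial RNA in the pericyte-like level was not tested. Of the 54 tested partner genes, 1 was higher and 1 lower. Dpysl3, a semaphorin effector, stood at 288, 169 and 119 CPM in smooth muscle-like sums against 3.92 and 1.29 CPM (edgeR adjusted p = 0.0409). Its relative Dpysl2 stood at 120, 50.4 and 36.2 CPM against 491 and 329 CPM (adjusted p = 0.0126).

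Pericyte-like cells carried the highest mean levels of 2 abundant guidance genes. Plxnb2, a broadly expressed plexin that binds class 4 semaphorins, stood at 365 and 608 CPM in pericyte-like sums, against 125, 181 and 315 CPM in smooth muscle-like sums, with an edgeR adjusted p of 0.253. Sema6d, a membrane semaphorin whose receptor is Plxna1, stood at 388 and 229 CPM, against 35.3, 32.8 and 298 CPM, with an adjusted p of 0.251. The ranges of Sema6d overlapped, with mouse 3 high among the smooth muscle-like sums. Sema5a stood at 194 ± 61.9 CPM (SD, n = 2 mice) in pericyte-like and 76.6 ± 20.95 CPM (SD, n = 3 mice) in smooth muscle-like sums, with an adjusted p of 0.862. Over the 50 members the median log2 change was 2.09 toward smooth muscle-like sums, against 0.41 over all genes.

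The 2 smooth muscle-like clusters carried different guidance genes. This split was looked at after the values had been seen and has no test. Cluster 2 (76, 57 and 18 cells) was led by Olfr78 and Nrip2, and cluster 7 (49 and 20 cells in mice 1 and 2) had Sost and Itga8 among its leading genes. Sema3c stood at 0.194, 0.678 and 2.13 CPM in cluster 2 and at 55.7 and 124 CPM in cluster 7, so the smooth muscle-like level of Sema3c came from cluster 7. Efna5 followed the same pattern, at 2.86, 2.23 and 1.07 CPM against 110 and 92.2 CPM. Sema3b stood at 90.1 and 92.5 CPM and Ntn1 at 60.5 and 98.6 CPM in cluster 7, and neither passed 8.14 CPM in cluster 2. Plxnb1 and Sema5b went the other way. Plxnb1 stood at 102, 81.9 and 155 CPM in cluster 2 and at 14.9 and 5.46 CPM in cluster 7, and Sema5b, a transmembrane semaphorin, at 84.9, 51.7 and 19.9 CPM against 0.934 and 1.09 CPM. Sema5a did not follow this split, at 67.2 to 105 CPM in cluster 2 and 78.2 and 93.8 CPM in cluster 7.

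**Figure D3:**
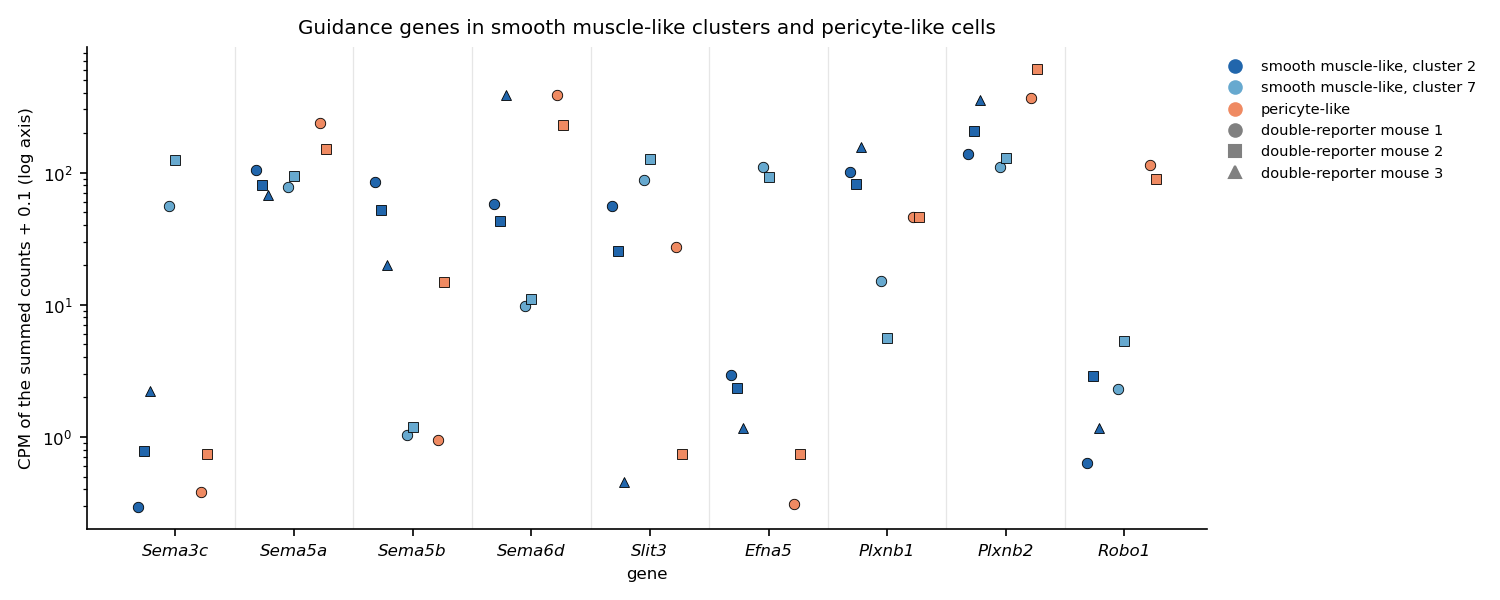
CPM plus 0.1 (log axis) of 9 guidance genes, chosen after their values were seen, in smooth muscle-like clusters 2 and 7 and in pericyte-like cells, with 1 point per mouse. Sema3c and Efna5 are high in cluster 7 only, and Sema5b and Plxnb1 are higher in cluster 2 than in cluster 7. Robo1 is high in the pericyte-like sums only.

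Against fibroblast-like cells, smooth muscle-like sums differed in 1 of 50 tested guidance genes (2.0%), against 2.76% of all genes (1.28% higher and 1.47% lower). None was lower by edgeR, although 10 were at an unadjusted p under 0.05 (8.65% of all genes). DESeq2 called 10 in all (10.4% of all genes), 8 of them lower (5.99%). Plxnb1 (chr9:109095389-109119917) stood at 60.98, 58.4 and 120 CPM in smooth muscle-like and 6.08, 1.76 and 4.84 CPM in fibroblast-like sums (log2 change 4.42, SE 0.82, edgeR adjusted p = 0.0218). The groups did not overlap, yet the call was lost when any 1 mouse was left out (adjusted p 0.127 to 0.236). Robo1 was lower in smooth muscle-like sums in all 3 mice, at 1.31 to 3.56 CPM against 22.97 to 54.5 CPM, with an edgeR adjusted p of 0.0586. Sema5b stood at 32.4 ± 15.4 CPM (SD, n = 3 mice) against 0.875 CPM, with an adjusted p of 0.131. Of 54 tested partner genes, 1 was higher and 2 lower. Arhgef16, an exchange factor that binds Epha2, stood at 47.7, 43.9 and 45.1 CPM against 4 counts in all fibroblast-like cells (edgeR adjusted p = 0.0118). Dpysl2 was lower, at 120, 50.4 and 36.2 CPM against 448, 253 and 236 CPM (adjusted p = 0.00514), and so was Flrt2, at 12.2, 2.35 and 1.66 CPM against 138, 92.9 and 75.1 CPM (adjusted p = 0.0493).

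Pericyte-like sums held less of 3 class 3 semaphorins than fibroblast-like sums, and no guidance gene passed the main edgeR test as higher. The 3 calls of 50 (6.0%, against 2.53% of all genes tested, 0.887% higher and 1.64% lower) were Sema3b, Sema3c and Sema3d. At an unadjusted p under 0.05, 4 genes were higher (4.6% of all genes). DESeq2 called 22 (15% of all genes), 5 of them higher (4.23%). By edgeR, 1 was called higher with RLE factors, with sums of at least 4 cells and with cells classed singly, and 2 after thinning. Plxnb1 lay just outside the threshold, at 46.3 and 45.9 CPM against 6.08, 1.76 and 4.84 CPM without overlap (log2 change 3.87, SE 0.86, edgeR adjusted p = 0.0514). Sema3c had 5 counts in the pericyte-like cells, at 0.280 and 0.647 CPM, against 42.0, 88.9 and 122 CPM in fibroblast-like sums (log2 change -7.42, SE 0.65, edgeR adjusted p = 0.00117). Sema3b stood at 3.57 and 0 CPM against 149, 90.1 and 61.5 CPM (log2 change -5.97, SE 0.95, edgeR adjusted p = 0.0127). Sema3d (chr5:12383385-12588948), a secreted semaphorin, stood at 0.420 and 0.647 CPM against 23.5, 33.7 and 28.4 CPM (log2 change -5.92, SE 1.22, edgeR adjusted p = 0.0391). Leaving out mouse 1 or 2 left 1 pericyte-like sum, and none of the 3 was then called, at log2 changes of -7.27 and -7.59 for Sema3c (edgeR adjusted p = 0.0504 and 0.099). Without mouse 3, which has no pericyte-like sum in this test, Sema3d was not called (adjusted p = 0.0694). Of 54 tested partner genes, 1 was higher and 4 lower. Chn1, a chimaerin of the Eph pathway, was higher at 478 and 497 CPM, against 8.04, 20.1 and 42.8 CPM (edgeR adjusted p = 0.0265). Its relative Chn2 was lower, with 4 counts against 33.2 to 60.3 CPM (adjusted p = 0.0333). Dpysl3, Flrt2 and Pdzrn3 were lower too. These comparisons share their sums, the fibroblast-like sums entering 3 of them.

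Within the fibroblast-like cells, valve-like cells were compared with interstitial cells. No guidance gene passed the edgeR test (0 of 50, against 0.291% of all genes tested, 0.137% higher and 0.154% lower). At an unadjusted p under 0.05 there were 7 of 50, against 6.36% of all genes, and DESeq2 called 3, against 3.05% of all genes. The smallest unadjusted p was that of Slit3 (0.0175), a secreted Robo ligand, at 10.8, 1.69 and 3.28 CPM in valve-like sums and 114 and 87.7 CPM in the interstitial sums of mice 2 and 3 (log2 change -4.95, SE 1.76, edgeR adjusted p = 0.583). The receptor Epha7 stood at 55.7, 81.3 and 106 CPM in valve-like and at 2.28 and 6.69 CPM in interstitial sums (adjusted p = 0.72). Sema3b stood at 154, 125 and 164 CPM against 23.8 and 42.2 CPM (adjusted p = 0.75). The groups did not overlap for any of these 3 genes, nor for other members such as Epha2, Robo2 and Unc5b. With 3 sums against 2 such separation shows little by itself, and only 2 mice held both kinds of cell. Sema3c was uneven among the interstitial clusters, at 883 CPM in cluster 14 (14 cells of mouse 3, led by Adgrd1 and Duox1, with Sema3c among its 10 leading genes) and 31.0 CPM in cluster 3 of the same mouse.

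Endothelial-like, endocardial-like and lymphatic endothelial-like cells came from the C57BL/6 mouse, so their levels have no replicate check, no test was made, and intervals cover counting error only. Cardiomyocyte markers stood at 988 CPM in the endothelial-like sum, against 130 CPM in the endocardial-like sum. Receptors with high levels here included Robo4, Ephb4, Plxnd1 and Plxna2. Robo4, the endothelial Robo, stood at 485 CPM in endothelial-like cells and had counts in 211 of 241 cells (87.6%, exact 95% interval 82.7 to 91.4). Ephb4, the receptor associated with venous endothelium, stood at 295 CPM in endothelial-like and 389 CPM in endocardial-like cells, in 79.7% (74.0 to 84.6) and 92.3% (83.0 to 97.5) of cells. Plxnd1, the receptor of Sema3e, stood at 257 CPM in endothelial-like cells, and Plxna2, a semaphorin receptor, at 138 CPM. Sema3e itself stood at 0.691 CPM there and at 115 CPM in Schwann-like cells. In the C57BL/6 Schwann-like sum, Robo4 at 207 CPM and Efna1 at 197 CPM stood beside the endothelial markers given above, while no double-reporter Schwann-like sum passed 0.642 CPM of Robo4 or 7.63 CPM of Efna1.

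Endothelial-like cluster 10 (60 cells), led by Gja5, Alox12 and Stmn2, and cluster 0 (181 cells), led by Aplnr and Car4, held different levels of several ephrins and semaphorins. The clusters were drawn without the guidance genes, and Sema3g was among the 10 leading genes of cluster 10. Sema3g, a secreted semaphorin known from arteries, stood at 153 CPM (148 to 159) in cluster 10, in 38 of 60 cells (63.3%, 49.9 to 75.4), and at 10.1 CPM in cluster 0. Efnb2, the ephrin of arterial endothelium and ligand of Ephb4, stood at 120 CPM (116 to 125) in cluster 10, in 71.7% of cells (58.6 to 82.5), and at 53.8 CPM in cluster 0. Efna5 stood at 29.7 against 0.169 CPM and Epha4 at 91.2 against 28.7 CPM. Sema6a, at 146 against 269 CPM, and Robo4, at 397 against 519 CPM, were lower in cluster 10. Ephb4 was 246 CPM in cluster 10 and 314 CPM in cluster 0.

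Endocardial-like cells, which line the heart chambers, held several guidance genes that were near 0 in endothelial-like cells. Epha7 stood at 129 CPM (124 to 134) against 1.64 CPM, Plxnc1, the receptor of Sema7a, at 102 CPM (98.1 to 107) against 0.596 CPM, and Ntn1 at 144 CPM (139 to 149) against 7.67 CPM. Unc5b showed the opposite order, at 88.8 CPM in endothelial-like cells and 0.418 CPM in endocardial-like cells. Sema4d stood at 89.6 CPM in endocardial-like cells and 1.76 CPM in endothelial-like cells. The 11 lymphatic endothelial-like cells held Sema6a at 434 CPM, Ntn1 at 414 CPM, Sema3f at 271 CPM, Sema3d at 220 CPM and Sema3a at 182 CPM. In these 11 cells 1 cell carried 24.4% to 37.0% of the counts of each of those 5 genes.

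**Figure D4:**
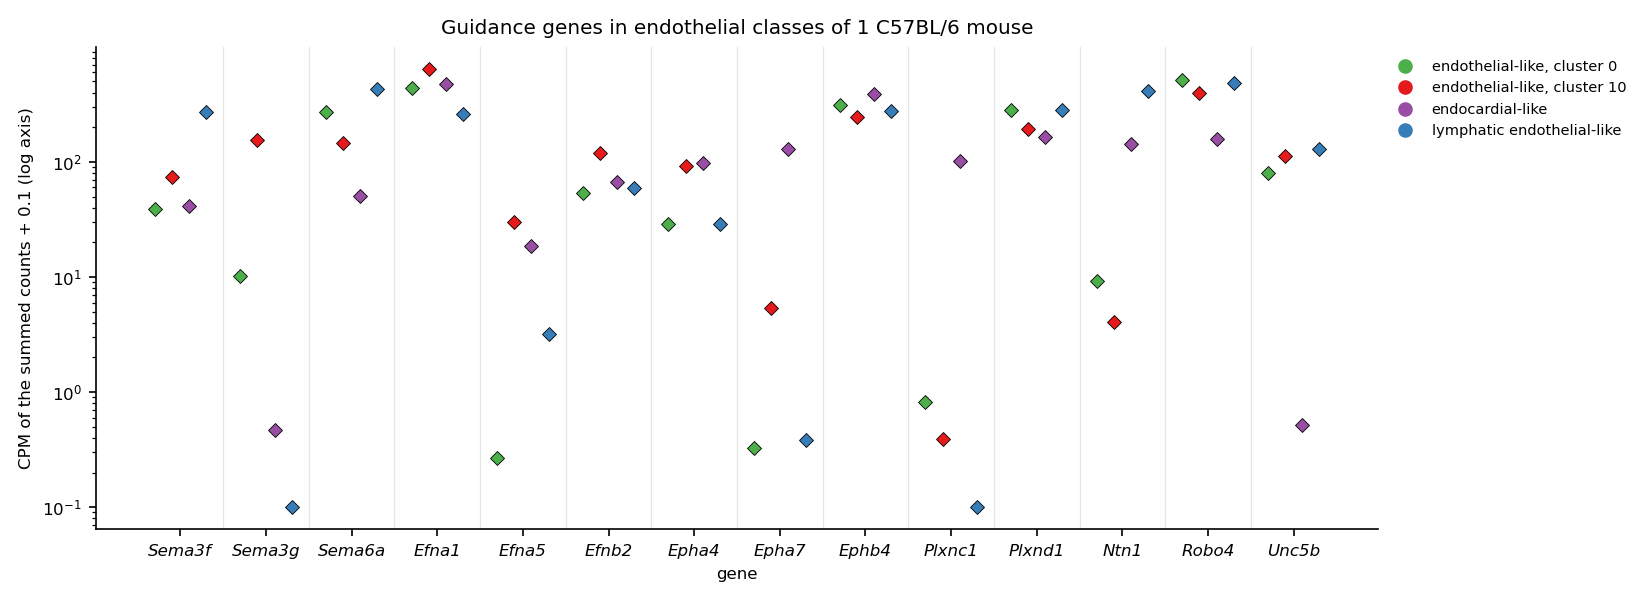
CPM plus 0.1 (log axis) of 14 guidance genes, chosen after their values were seen, in endothelial-like clusters 0 and 10, endocardial-like and lymphatic endothelial-like cells of the C57BL/6 mouse, with 1 point per class and no replicate. Sema3g is highest in cluster 10 (153 CPM), Epha7 and Plxnc1 in endocardial-like cells, and Ntn1 and Sema3f in lymphatic endothelial-like cells.

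Macrophage-like cells, from mouse 3 only, held 2 abundant guidance genes. Plxnb2 stood at 439 CPM in 23 of 30 cells (76.7%, 57.7 to 90.1) and Sema4a, a semaphorin of immune cells, at 334 CPM in 22 of 30 cells (73.3%, 54.1 to 87.7). Sema4d followed at 81.5 CPM.

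For 3 ligands and their known receptors, chosen after their values were seen, the class with the highest mean differed, while 2 of the pairs also shared a class. Sema5a was highest in pericyte-like sums (194 CPM) and its receptor Plxnb3 in Schwann-like sums (305 ± 54.5 CPM, SD, n = 3 mice), where Sema5a stood at 6.04 CPM. Sema4d was highest in Schwann-like sums (151 ± 91.0 CPM, SD, n = 3 mice), which also held its receptor Plxnb1 at 44.5 ± 31.2 CPM (SD, n = 3 mice). Plxnb1 was highest in smooth muscle-like sums (79.9 ± 35.1 CPM, SD, n = 3 mice). Slit2 was highest among the named classes in fibroblast-like sums (26.8 ± 3.60 CPM, SD, n = 3 mice), which also held Robo1 at 36.6 CPM. Robo1 was highest in pericyte-like sums (102 ± 17.6 CPM, SD, n = 2 mice). Another pair named above peaked in the same class. Sema6d (309 ± 113 CPM, SD, n = 2 mice) and its receptor Plxna1 (108 ± 59.8 CPM, SD, n = 2 mice) were both highest in pericyte-like sums. Transcript levels give no measure of binding.

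Some counts carry an identity limit. Exons of Epha1 overlap those of Zyx on the opposite strand over 6.01% of their length, and Zyx had 181113 counts against 4877 for Epha1. Efna4 overlaps 4731419I09Rik over 10.5%, Efna3 overlaps Gm15998 over 14.1% and Plxna1 overlaps Gm26811 over 10.7%. The strand setting of the counting is not given in the sources used here, so reads from these pairs cannot be told apart, and the level of Epha1 in smooth muscle-like sums (42.0 ± 12.9 CPM, SD, n = 3 mice) is uncertain.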

How the data were processed

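The authors deposited 1 table of whole-number counts, with genes against cells. The tools featureCounts, Subread, Bowtie2, Bowtie and bcl2fastq and the build GRCm38 (mm10) are named in the submitters' processing notes; versions, order and strand setting are not given in the sources used here. Of 46517 rows, 512 had no symbol and stayed in the tests under their identifiers. All 1307 cells passed 10000 counts and 500 genes. No 2 cells held identical counts (0 pairs).

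The members and lists were chosen with earlier results of these data known. Cells were normalised to 100000 counts and clustered with scanpy 1.11.5 (2000 variable genes, 30 components, 15 neighbours, leidenalg 0.10.2, resolution 1) after 2215 genes were withheld. A cluster was named when at least 3 markers reached 100 CPM and 2 times their mean over clusters, and stayed unnamed (clusters 4, 5 and 16) when a second class came within 1 marker or led its 10 leading genes. Names were rebuilt from markers and may differ from the study's. Scrublet marked 1 to 3 cells per mouse, which were kept.

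Counts were summed per mouse and class (at least 10 cells; 1546265 to 40914090 counts per tested sum) and tested with edgeR 4.0.16 (R 4.3.3; TMM, filterByExpr, quasi-likelihood) in a fit of all classes, adjusted over all genes. Classes came from the same animals, so the mouse was the block. With this block, p-values measure the spread that remains after differences in level between mice are taken out. This spread is shared over all classes in the fit. The SE is the log2 change divided by the root of the F statistic. The test was tried on simulated data, but the outcome is not given here and is no check of its error rate. Of the 57 members 50 passed the filter; Efna3, Epha5, Epha10, Ephb1, Robo4, Sema3g and Sema6b did not. Since a gene passes through a class where it is high, counts over the 50 are descriptions. Named genes were up to 12 called members each way that moved alike in every mouse and, per family, the 2 with the highest CPM per kb of GENCODE M21 exon; others named were chosen after their values were seen. Alternatives were another filter on cells, RLE factors, DESeq2 1.42.0, no gene filter, no block, 2-class fits, sums of at least 4 cells, cells classed singly, resolution 2, cells without endothelial markers or Scrublet calls, thinning, and each mouse left out.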

Additional observations from a re-analysis of the deposited data

Results flagged for a closer look

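The 8 guidance genes with counts in fewer than 10 cells entered no comparison, and 5 of them had more counts than the 3 that serve as the floor. Efnb3 had 122 counts in all, 90 of them in 2 endothelial-like cells of the C57BL/6 mouse. Sema4g had 112 counts, of which 49 came from 1 endothelial-like cell and 40 from 1 smooth muscle-like cell. Robo3 had 86 counts, 84 of them in 4 endothelial-like cells. Epha8 had 9 counts in 1 cell, and Unc5d 6 counts, never more than 1 in a cell. Ntn5 had 1 count, and Epha6 and Slit1 had none.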

How the results depend on the processing

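The called genes kept their direction in all 15 alternatives, but the number of calls moved. In smooth muscle-like against pericyte-like sums (2 calls) it was 0 with cells of at least 100000 counts and 2000 genes, 16 with DESeq2, 4 with sums of at least 4 cells, 1 with cells classed singly, 1 without cells over 500 CPM of endothelial markers, and 0 to 1 with a mouse left out. With only the 2 classes in the fit it was 2, neither of them Sema3c or Robo1. The deeper cells, the cells without endothelial markers, and leaving out mouse 1 or 2 each left 1 pericyte-like sum. In smooth muscle-like against fibroblast-like sums (1 call) it was 10 with DESeq2, 2 without the replicate block, 3 with only the 2 classes in the fit, 0 with cells classed singly and 0 with any mouse left out. In pericyte-like against fibroblast-like sums (3 calls) it was 1 with the deeper cells, 22 with DESeq2, 6 with sums of at least 4 cells, 5 after thinning and 0 to 2 with a mouse left out. In Schwann-like against fibroblast-like sums (11 calls) it was 3 with the deeper cells, 21 with DESeq2, 5 with only the 2 classes in the fit and 1 to 4 with a mouse left out. In valve-like against interstitial sums (0 calls) DESeq2 called 3. The replicate block is the mouse from which both classes came; without it the counts were 3, 2, 3, 11 and 0 in the order above. DESeq2 also called more of all genes (10.4% to 17.1% in the first 4 comparisons). With RLE factors the median log2 change of all genes in smooth muscle-like against pericyte-like sums moved from 0.41 to 0.29, and in pericyte-like against fibroblast-like sums from -0.57 to -0.46. Of the named genes' values, 1526 stayed on their side of the threshold, 79 lost and 36 gained a call, and none reversed. The cause of these shifts was not tested. Depth limited the pericyte-like and Schwann-like sums of mouse 2 most (1546265 and 1556343 counts).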

Other observations

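The 2 largest unnamed clusters were left out of the tests and also held guidance genes. Cluster 5 (80 and 21 cells of double-reporter mice 1 and 2) had near-equal smooth muscle and pericyte markers and was led by Ccl11, Eya2 and Masp1. It held Slit3 at 96.4 and 173 CPM, Sema5a at 130 and 190 CPM and Sema5b at 31.7 and 159 CPM, and Robo1 at 7.23 and 0.390 CPM. Of its Epha3 counts in mouse 1, at 50.3 CPM, 13.9% came from 1 cell. Cluster 4 (18 and 87 cells of mice 2 and 3) had fibroblast markers with mesothelial genes in the lead (Upk3b, Msln and Lrrn4). It held Sema3c at 394 and 134 CPM and Slit3 at 34.0 and 105 CPM. No test was made on either cluster.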
